A study of Mus musculus with 6 samples.

Results

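COUP-TFII, the orphan nuclear receptor encoded by Nr2f2, was mapped by chromatin immunoprecipitation and sequencing (ChIP-seq) in mouse mesonephroi, and its peaks at 8 genes of androgen and estrogen action are described here. The genes are Esr1 (the estrogen receptor), Srd5a1, Srd5a2 and Srd5a3 (steroid reductases), Hsd17b3 (testosterone synthesis), Ncoa1 and Ncoa2 (coactivators of nuclear receptors) and Ncor1 (a corepressor). A peak was given to a gene when that gene's body was the nearest protein-coding one to the peak's centre, within 100 kb. This gave 11 of the 11175 peaks of the female list and 7 of the 9846 peaks of the male list to the 8 genes. The tissue came from CD-1 embryos at E14.5, in mid gestation, with 2 samples of COUP-TFII ChIP from pooled XX mesonephroi, 2 from pooled XY mesonephroi and 2 of input from XX and XY together. The mesonephros lies beside the fetal gonad and holds the Wolffian and Müllerian ducts with the mesenchyme around them. Each sex has 1 list of peaks over its 2 samples, so no count below has a spread between replicates and none was tested. Every peak is 300 bp wide and carries no height or score, and how deeply the samples were sequenced is unknown from them. A peak called in 1 list only may be below the calling threshold in the other.

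Androgens and estrogens act through nuclear receptors, which bind DNA and recruit coactivators or corepressors. Testosterone keeps the Wolffian duct of the male fetus, and its reduced form dihydrotestosterone masculinises the urogenital sinus and external genitalia. The estrogen receptor is found in mesenchyme of the female reproductive tract. COUP-TFII binds repeats of the core motif AGGTCA, as many nuclear receptors do, and COUP-TF proteins can recruit the corepressor encoded by Ncor1.

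Where a promoter of these genes touched a peak, its letters show how peak and start lie to each other. The windows below run from 250 bases before to 50 bases after a transcription start (RefSeq, GRCm38.p6, the assembly of mm10), 5′ to 3′ on the gene's strand, with bases inside a peak in capitals. Srd5a1 and Nsun2 are shown because they face away from each other, with starts 553 bp apart, and a peak common to both sexes fills most of the Nsun2 window. The Srd5a1 window is at chr13:69611414-69611713 (minus strand) and the Nsun2 window at chr13:69611766-69612065 (plus strand). The Ncoa1 window, chr12:4477133-4477432 (minus strand), is shown for its female-only peak. The Ncor1 window, chr11:62457283-62457582 (minus strand), is shown for a shared peak at its upstream edge.
Srd5a1: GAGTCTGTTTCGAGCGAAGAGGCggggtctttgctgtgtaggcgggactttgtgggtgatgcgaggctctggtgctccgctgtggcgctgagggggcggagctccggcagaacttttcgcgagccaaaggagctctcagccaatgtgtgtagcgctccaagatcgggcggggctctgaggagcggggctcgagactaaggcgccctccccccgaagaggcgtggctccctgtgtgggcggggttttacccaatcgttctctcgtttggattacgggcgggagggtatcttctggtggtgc
Nsun2: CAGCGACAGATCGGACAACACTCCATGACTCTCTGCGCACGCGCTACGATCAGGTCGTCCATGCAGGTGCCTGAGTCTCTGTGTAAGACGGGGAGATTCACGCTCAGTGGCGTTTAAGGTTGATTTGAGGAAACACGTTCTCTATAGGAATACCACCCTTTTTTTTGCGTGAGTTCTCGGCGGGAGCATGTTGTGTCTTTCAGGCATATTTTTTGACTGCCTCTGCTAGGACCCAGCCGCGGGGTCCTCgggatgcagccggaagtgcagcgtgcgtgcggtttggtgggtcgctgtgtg
Ncoa1: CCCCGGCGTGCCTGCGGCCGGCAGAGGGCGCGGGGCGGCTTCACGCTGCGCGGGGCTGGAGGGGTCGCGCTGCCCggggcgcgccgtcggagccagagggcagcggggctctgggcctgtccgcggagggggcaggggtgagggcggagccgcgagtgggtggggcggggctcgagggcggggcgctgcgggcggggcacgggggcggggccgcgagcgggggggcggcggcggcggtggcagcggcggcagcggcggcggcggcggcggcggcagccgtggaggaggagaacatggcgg
Ncor1: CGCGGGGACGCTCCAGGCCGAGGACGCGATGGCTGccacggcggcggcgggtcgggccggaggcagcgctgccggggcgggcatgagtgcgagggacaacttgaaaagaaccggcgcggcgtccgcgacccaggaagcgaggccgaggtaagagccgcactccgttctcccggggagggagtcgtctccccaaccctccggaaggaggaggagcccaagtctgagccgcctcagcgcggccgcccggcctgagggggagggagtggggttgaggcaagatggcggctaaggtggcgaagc
The female peak covered 249 of the 300 bases of the Nsun2 window and the male peak 225 of them. At Srd5a1 only the male peak reached the window, over 23 bases. At Ncoa1 the female peak covered 75 bases. At Ncor1 the female peak covered 12 bases and the male peak 35. The Srd5a3 window, which is not shown, was touched by 11 bases of its male peak.

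Of the 8 genes, 6 had at least 1 female peak and 5 at least 1 male peak. Over all 21896 protein-coding genes these shares were 36.9% for a female peak and 35.0% for a male peak. A shared peak, one with at least 1 bp in common between the lists, was found at 4 of the 8 genes (Esr1, Srd5a3, Ncoa2 and Ncor1), against 28.2% of all genes. Esr1, Srd5a2 and Ncoa1 had female-only peaks (13.1% of all genes), and Hsd17b3 and Ncor1 each had a male-only peak (9.55% of all genes). Srd5a1 was given no peak, like 57.9% of all genes.

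**Figure D1:**
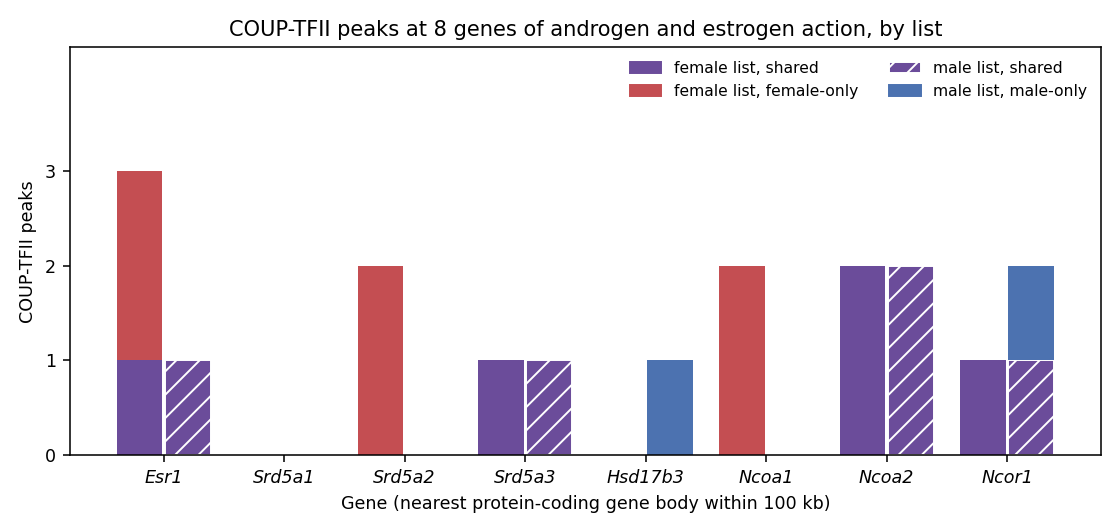
COUP-TFII peaks (vertical axis, number) given to each of the 8 genes, with the female list in the left bar and the male list in the right bar of each pair. Esr1 has 3 female peaks and 1 male peak, Srd5a2 and Ncoa1 have 2 female peaks and no male peak, and Ncoa2 has 2 in each list.

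These genes have long stretches of genome to themselves, which bears on such counts. The stretch nearest to each, within 100 kb, had a median of 134 kb over the 8 genes and 45.1 kb over all genes. Per 100 kb of it, the 8 genes had 0.687 female peaks and 0.437 male peaks, against 0.547 female and 0.492 male peaks for all protein-coding genes. These values rest on 11 female and 7 male peaks and cover only DNA within 100 kb of a gene, and no difference from all genes is read from them. Of their 11 female peaks, 5 were shared (45.5%, exact 95% interval 16.7 to 76.6), against 67.0% of all female peaks. Of their 7 male peaks, 5 were shared (71.4%, interval 29.0 to 96.3), against 76.0% of all male peaks. Both intervals include the share of all peaks. They cover counting error only and treat peaks of the same gene as independent.

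**Figure D2:**
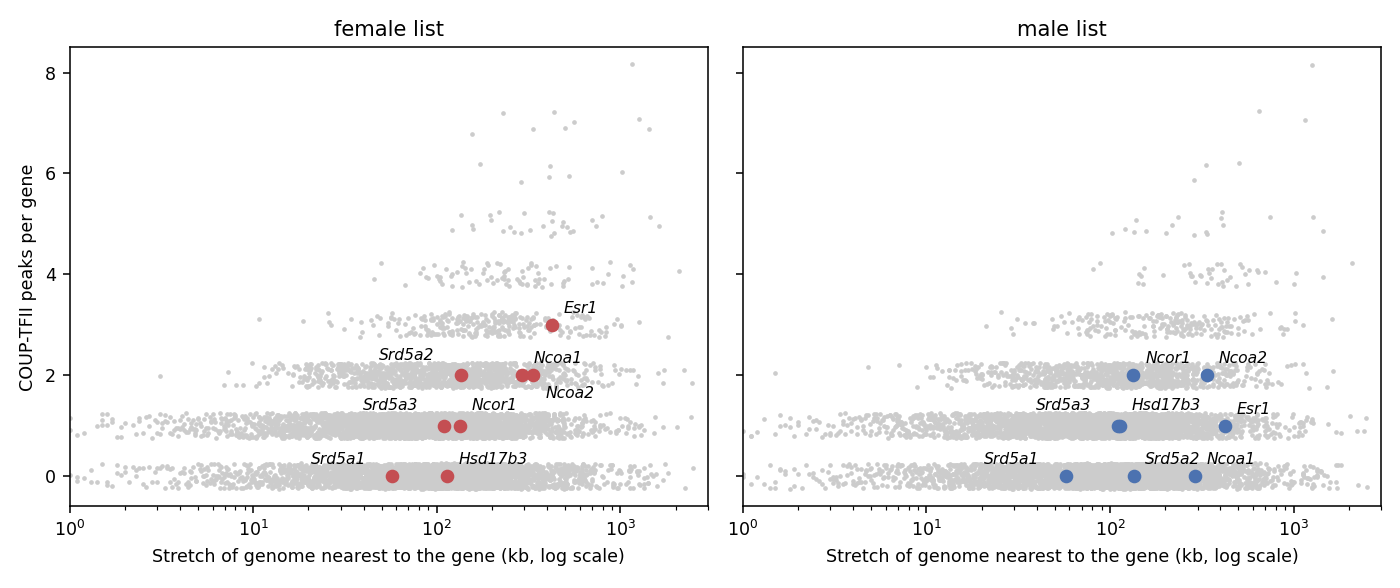
Peaks per gene (vertical axis) against the stretch of genome nearest to the gene (horizontal axis, kb, log scale), in the female list on the left and the male list on the right. Large points are the 8 genes, and grey points are combinations of stretch and peak counts found among all protein-coding genes, shifted at random up or down to separate them. Esr1, with 3 female peaks over 425 kb, lies among other genes with stretches of like length.

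Esr1 (gene 13982, chromosome 10, 4611989 to 5005633, plus strand) encodes estrogen receptor alpha, the receptor through which the uterus and its fetal mesenchyme respond to estrogen. It had 3 female peaks and 1 male peak, all inside the gene. The shared peak lay at 4712324 to 4712623 in the female list and at 4712266 to 4712565 in the male list, with centres 58 bp apart. RefSeq gives Esr1 more than 1 start, and the shared peak lay 2.32 kb (female) and 2.26 kb (male) downstream of the start at 4710158. The female-only peaks lay at 4618593 to 4618892, 6.75 kb downstream of the first start at 4611989, and at 4797409 to 4797708, 87.4 kb beyond the second start. The nearest male peaks were 65.4 kb and 85.1 kb from these. Of the Esr1 peaks, the shared one was the nearest to a start of the promoter table. Of 419 genes whose stretch is within 20% of that of Esr1 (425 kb), 66.1% had a female peak and 55.4% a male peak. In the same 419 genes, 32.7% had 2 or more female peaks and 12.2% had 3 or more.

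The steroid reductases turn testosterone into dihydrotestosterone, and their genes differed from each other in these lists. Srd5a2 (gene 94224, chromosome 17, 74014891 to 74047860, minus strand) encodes the isozyme that is lost in human deficiency of dihydrotestosterone, with undermasculinised genitalia. It had 2 female peaks and no male peak. The first lay inside the gene, at 74020553 to 74020852, 27.2 kb downstream of the start and 5.81 kb from the far end. The second, at 73984452 to 73984751, lay 30.3 kb beyond that end, 34.2 kb from Xdh and 632 bp from the long noncoding RNA gene Gm30983. The nearest male peak was 240 kb from the outer peak and 274 kb from the inner one. No peak of either list touched the Srd5a2 promoter window. Of all protein-coding genes, 127 (0.580%) had exactly 2 female-only peaks, with no shared peak of the female list and no male-only peak. Srd5a2 and Ncoa1 were both among them. Among 2474 genes with a stretch within 20% of that of Srd5a2 (135 kb), 13.0% had 2 or more female peaks and 42.8% had a male peak.

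Srd5a3 (gene 57357, chromosome 5, 76140273 to 76155503, plus strand) encodes a reductase better known for making dolichol for protein glycosylation. It had 1 shared peak at its start and no other. The female peak, at 76140370 to 76140669, was centred 247 bp downstream of the start, and the male peak, at 76140312 to 76140611, 189 bp downstream. A single shared peak was the most usual pattern among genes with peaks, with 4318 genes (19.7% of all protein-coding genes) alike.

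Srd5a1 (gene 78925, chromosome 13, 69573449 to 69611485, minus strand), which encodes the other classical isozyme, had no peak by the rule, yet a shared peak lay just upstream of it. The female peak at 69611715 to 69612014 was 380 bp outside Srd5a1 and 151 bp outside Nsun2, an RNA cytosine methyltransferase gene that starts in the opposite direction. The male peak at 69611691 to 69611990 was 356 bp outside Srd5a1 and 175 bp outside Nsun2. Both peaks therefore went to Nsun2, and position alone does not tell which promoter they belong to. The next peak near Srd5a1, also shared, was 38.5 kb away in both lists and went to A930018O16Rik.

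Hsd17b3 (gene 15487, chromosome 13, 64058274 to 64089262, minus strand) encodes the enzyme that makes testosterone from androstenedione, and in the fetal mouse testis this step takes place in Sertoli cells. It had 1 male-only peak, at 63980384 to 63980683, and no female peak. That peak lay 77.7 kb beyond the far end of the gene, 109 kb from the start. It was only slightly farther from Ercc6l2, at 80.2 kb, and the nearest female peak was 28.4 kb from it. It was the farthest peak given to any of the 8 genes, and widening the limit to 500 kb added no peak to any of them. Shared peaks at Slc35d2, Zfp367 and Habp4 lay upstream of Hsd17b3, the nearest 40.0 kb from it in both lists. A male-only peak was found at 12.2% of the 2482 genes with a stretch within 20% of that of Hsd17b3 (114 kb).

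**Figure D3:**
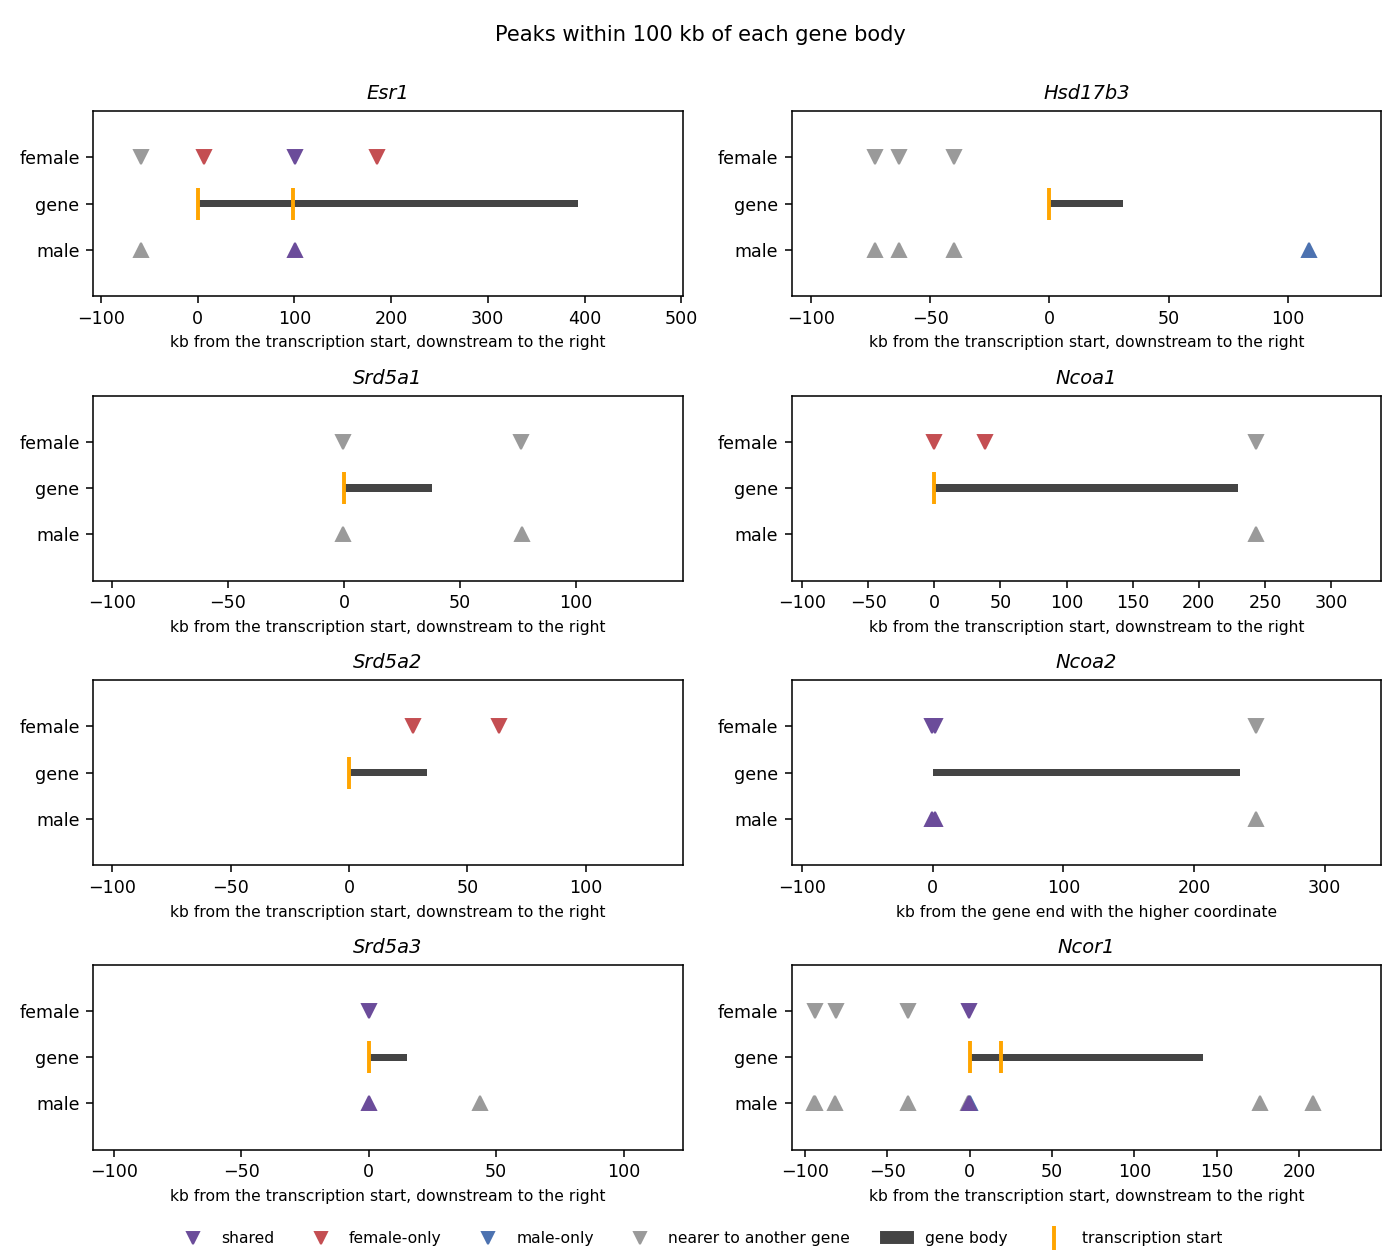
Peaks within 100 kb of each gene body, with distance in kb on the horizontal axis, measured from the transcription start (for Ncoa2, from the gene end with the higher coordinate), and the female list above the gene and the male list under it. Srd5a2 has female-only peaks and an empty male row, Hsd17b3 has a male-only peak far beyond its end, and grey triangles are peaks nearer to another gene.

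The coactivators of the p160 family bind receptors that hold hormone and bring in histone acetyltransferases. Ncoa1 (SRC-1; gene 17977, chromosome 12, 4247362 to 4477206, minus strand) had 2 female peaks and no male peak. The peak at 4477358 to 4477657 was centred 326 bp upstream of the start. The peak at 4438488 to 4438787 lay inside the gene, 38.5 kb downstream of the start. The nearest male peak was 115 kb from the peak at the start and 154 kb from the inner peak. Beyond the far end of Ncoa1 lay a shared peak nearer to other genes. It was 13.2 kb from Ncoa1 in the female list (given to Cenpo) and 13.3 kb in the male list (given to Ptrhd1). Among 787 genes with a stretch within 20% of that of Ncoa1 (291 kb), 24.1% had 2 or more female peaks and 54.5% had a male peak.

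Ncoa2 (SRC-2; gene 17978, chromosome 1, 13139105 to 13374227) had 2 shared peaks and no peak in 1 list only. Both lay at the gene end with the higher coordinate. The female peaks were at 13372598 to 13372897, inside the gene and 1.48 kb from that end, and at 13374272 to 13374571, 195 bp outside it. The male peaks were at 13372620 to 13372919, 1.46 kb from the end, and at 13374421 to 13374720, 344 bp outside. The centres of the inner pair were 22 bp apart and those of the outer pair 149 bp apart, against a median of 33 bp over all 7483 shared peaks (middle 50% of peaks, 14 to 68 bp). The outer pair was the one shared position of the 8 genes that was lost when centres had to lie within 100 bp. The same counts were found at 443 genes (2.02%). A shared peak was found at 42.7% of the 593 genes with a stretch within 20% of that of Ncoa2 (336 kb). Of these 593 genes, 27.0% had 2 or more female peaks and 21.1% had 2 or more male peaks.

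Ncor1 (gene 20185, chromosome 11, 62315663 to 62457414, minus strand) encodes the corepressor that ties unliganded receptors to histone deacetylase. It had 1 female peak and 2 male peaks around its upstream start. The shared peak was centred 389 bp upstream of the start at 62457332 in the female list (62457571 to 62457870) and 366 bp upstream in the male list (62457548 to 62457847). The male-only peak, at 62456804 to 62457103, was 378 bp downstream of that start and 767 bp from the female peak. A further male-only peak at 62458186 to 62458485 lay 0.922 kb outside Ncor1 and 105 bp from Pigl, a glycolipid anchor gene whose start is 1109 bp away and faces the other direction. It was given to Pigl. The male list thus had 3 peaks around these starts, which face away from each other, and the female list 1. The male-only peak of Ncor1 no longer counted as male-only when any female peak up to 1 kb away made it common to both sexes. The male-only peak given to Pigl also lay within 1 kb of the female peak of Ncor1. A male-only peak was found at 12.3% of the 2471 genes with a stretch within 20% of that of Ncor1 (134 kb). Of these 2471 genes, 9.47% had 2 or more male peaks.

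**Figure D4:**
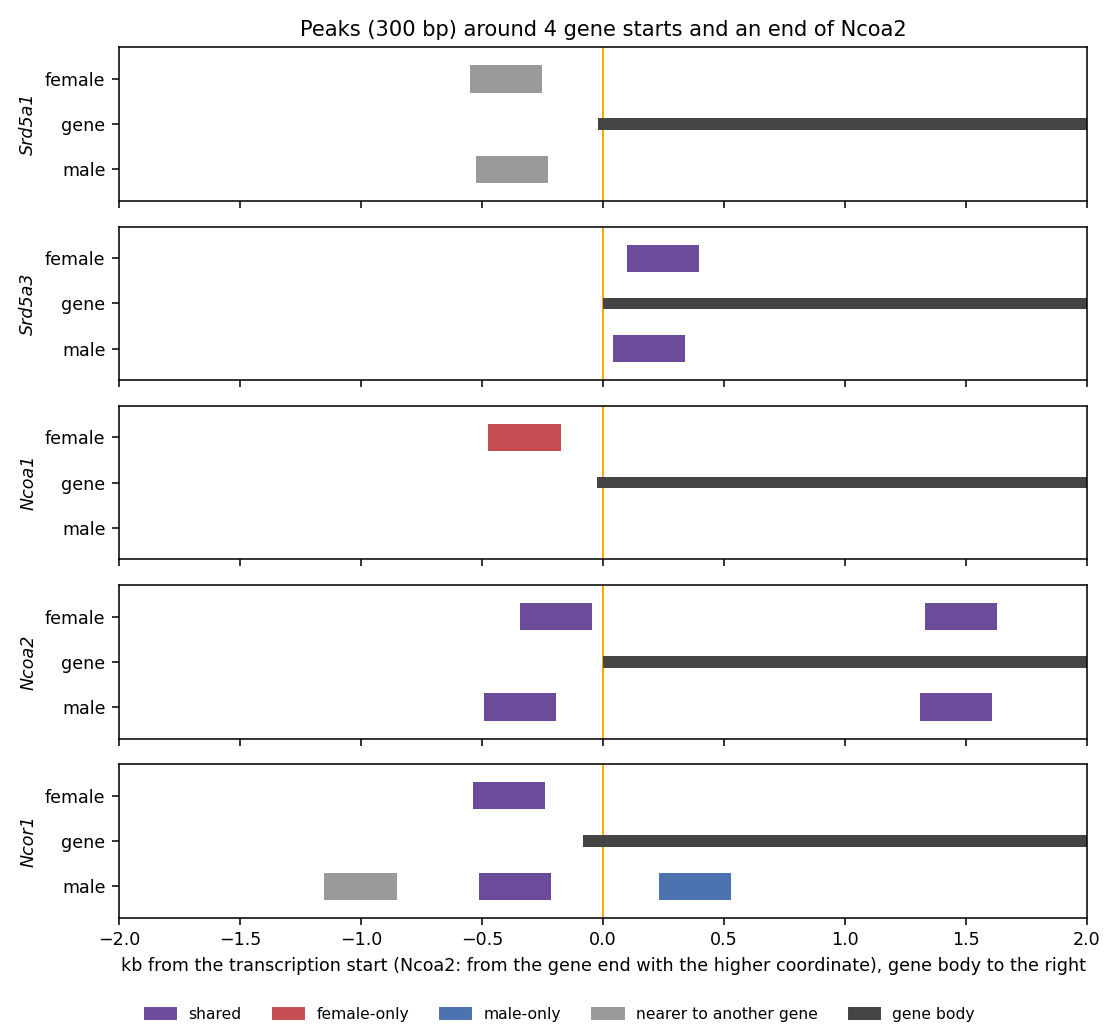
The 300 bp peaks within 2 kb of the starts of Srd5a1, Srd5a3, Ncoa1 and Ncor1 and of the gene end of Ncoa2 with the higher coordinate, with distance in kb on the horizontal axis and the female list above the gene and the male list under it. Female and male peaks lie over each other at Srd5a1 (peaks given to Nsun2), Srd5a3, Ncoa2 and Ncor1, while the male row is empty at Ncoa1.

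Shared, female-only and male-only peaks were also counted by whether they lay near an end of their gene. Of the 5 shared peaks of these genes, 3 were within 1 kb of an end of their gene (Srd5a3, Ncor1 and the outer peak of Ncoa2), against 61.2% of all shared peaks. Of the 6 female-only peaks, 1 was (Ncoa1), against 33.7% of all female-only peaks. Of the 2 male-only peaks, 1 was (Ncor1), against 54.0% of all male-only peaks. A difference between the 8 genes and the lists as a whole was not tested, and with so few peaks none is read from these counts.

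Of the 8 genes, 7 have promoter windows in the RefSeq table, 9 windows in all (Ncoa2 has none there). Female peaks touched 2 of the 9 and male peaks 3, against 19.6% and 19.7% of all 21262 windows of protein-coding genes. The 4 windows touched by either list (Ncoa1, Ncor1, Srd5a1 and Srd5a3) had between 63.0% and 84.7% G and C. The 5 others had between 38.3% and 62.7%. The median of all 21262 windows was 56.3% (quartiles 48.3% and 64.7%). The ranges nearly meet, at Srd5a1 (63.0%, touched) and Srd5a2 (62.7%, not touched). Srd5a1 was touched only by 23 bases of a male peak given to Nsun2, and Srd5a3 only by 11 bases of its male peak. No link between G and C content and peaks is read from these windows. The core motif AGGTCA, searched on both strands, was in none of the 9 windows, against 14.7% of all windows. Its direct repeat with 1 base between, AGGTCANAGGTCA, was in none of the 9 and in 0.0470% of all windows. The estrogen response element GGTCANNNTGACC was in none of the 9 and in 0.0517% of all windows. The shorter GGTCA, which AGGTCA contains, was in 1 of the 9, the first Esr1 window, and in 39.4% of all windows. The Nsun2 window with the shared peak held none of these motifs. The windows hold only a small part of most peaks, and the peaks' own sequences were not used here.

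Other genes of steroid synthesis and action were looked up as a list of 47 genes in 4 classes, with 3 receptor genes beside it that were not counted as a class. Esr2 (estrogen receptor beta), Pgr (the progesterone receptor) and Gper1 (a membrane estrogen receptor) had no peak in either list, like 57.9% of all genes. Their stretches ran from 4.7 kb (Gper1) to 182 kb (Pgr). Of 18 enzyme genes of steroid synthesis and breakdown, 4 had a female peak, 4 a male peak and 4 a shared peak (22.2% each). Over all protein-coding genes, 36.9% had a female peak, 35.0% a male peak and 28.2% a shared peak. Star, Cyp11a1, Cyp17a1, Hsd3b1 and Cyp19a1 act at some of the steps from cholesterol to androgens and estrogens. They were among the 14 of 18 with no peak in either list. Of all protein-coding genes, 57.9% had none. The stretches of the genes just named ran from 9.7 kb (Star) to 160 kb (Cyp19a1). Hsd17b12, which also elongates fatty acids, had 2 shared peaks, of which 1 was at its end (155 bp in the female list, 216 bp in the male list). Hsd17b7, which acts in cholesterol synthesis, had 1 shared peak within 98 bp of its end in the female list and 14 bp in the male list. Cyp1b1, which hydroxylates estradiol, had 1 shared peak 27.9 kb (female) and 27.8 kb (male) outside the gene, and 1 male-only peak inside it. Por, the remaining enzyme gene with a peak, had 1 shared peak.

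The classes are unlike in how much DNA lies closest to their genes, with a median stretch of 106 kb for the coactivators, 104 kb for the corepressors, 28.6 kb for the chaperones and 58.3 kb for the enzymes. Of 12 coactivator genes, 9 had a female peak, 9 a male peak and 8 a shared peak. The acetyltransferase gene Ep300 had 2 shared peaks within 1 kb of its end, its relative Crebbp had 1 shared and 1 female-only peak within 1 kb, and Ncoa7 had 1 shared and 1 female-only peak. Of 11 corepressor genes, 6 had a female peak, 7 a male peak and 5 a shared peak. Kdm1a, a histone demethylase gene, and Tbl1x, whose protein is part of the corepressor complex of Ncor1, had 2 shared peaks each. Both of Kdm1a lay within 656 bp of its end. Of the Tbl1x peaks, 1 lay 75.8 kb (female) and 75.9 kb (male) outside the gene. The other lay inside it, 1.74 kb (female) and 1.83 kb (male) from an end. Lcor, a corepressor that binds liganded receptors, had 2 male-only peaks, 358 bp outside and 952 bp inside its end. Of 6 chaperone genes of steroid receptors, 5 had a female peak, 6 a male peak and 4 a shared peak. Fkbp5 and Hsp90aa1 had a shared peak within 215 bp of an end, while the female peak of Fkbp4 at 682 bp and its male peak at 321 bp from the end did not overlap. In all, 24 of the 47 genes had a female peak (51.1%, against 36.9% of all genes), 26 a male peak (55.3%, against 35.0%) and 21 a shared peak (44.7%, against 28.2%). The median stretch of the 47 genes was 62.2 kb, against 45.1 kb for all genes. Expression was not measured. The classes were not tested against each other or against all genes, and no difference from all genes is read from these shares.

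**Figure D5:**
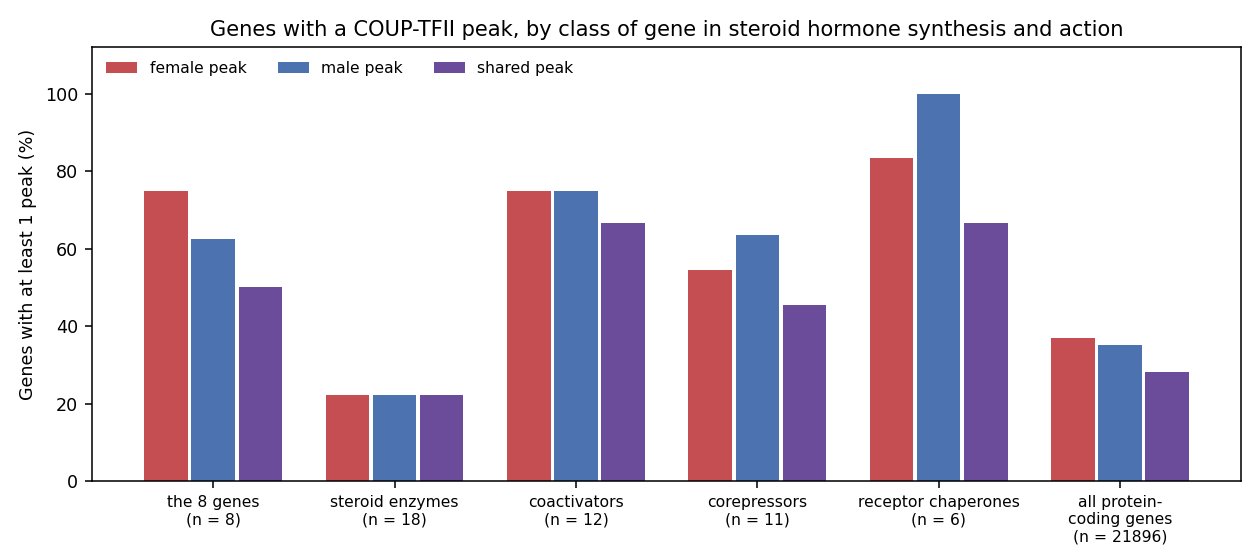
Share of genes with at least 1 female, male or shared peak (vertical axis, %) for the 8 genes, 4 classes of related genes and all protein-coding genes, with the number of genes under each class. Shared peaks are at 22.2% of the steroid enzymes and 66.7% of the coactivators.

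The genes most alike in pattern were taken as those with the same counts of shared, female-only and male-only peaks and the nearest length of stretch. They were Arhgef28 for Esr1 (428 kb against 425 kb), Psat1 for Srd5a2 (135 kb for each), B4galt5 for Srd5a3 (110 kb for each), Kcmf1 for Hsd17b3 (114 kb for each), Tanc1 for Ncoa1 (291 kb for each), Macf1 for Ncoa2 (346 kb against 336 kb) and Matn2 for Ncor1 (134 kb for each). The likeness rests on 2 lists only, and the other genes with the same counts numbered from 71 for Esr1 to 4317 for Srd5a3.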

How the data were processed

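Positions of COUP-TFII peaks are the only values used. Per the labels, each sex's list belongs to both of its samples, and the submitters' processing notes name HOMER 4.10.3, bedtools 2.24.0, Bowtie 1.2, cutadapt, Picard and the mm10 build, with no role for any. For peak calling, its threshold and the joining of samples, the sources used here give no account. The authors' deposited lists have 3 columns (chromosome, start, end), and no score. The extraction text of the labels names RUNX1 and ovaries, while titles, tissue, antibody and design name COUP-TFII and mesonephroi, which were followed.

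Coordinates are counted from 1. Genes came from RefSeq for GRCm38.p6. On it, 52.7% of female peaks lay within 1 kb of a protein-coding gene end, and 5.75% to 6.00% did after a shift of 10 to 100 kb. Peaks inside several genes went to the gene with the nearer end. The stretch nearest to each gene was measured on a grid of 100 bp. Overlaps, computed with Python 3.11.15 and pandas 2.3.3, equalled those of bedtools 2.31.1. Intervals are exact (Clopper-Pearson, scipy 1.17.1). Assignment and overlap were tested on simulated data.

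The members and lists were chosen with earlier results of these data known. Related genes named are the 3 per class with most peaks (ties by symbol) and the receptors; other names are examples behind a count, chosen after their values were seen. In the list of related genes, 1 had no entry in the gene table and 2 are not reported here, so the counts over the list are without them and the receptors, no longer whole, have no class count. The comparison with genes of like stretch was added after seeing the data. Nothing was tested, since each sex has 1 list.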

Additional observations from a re-analysis of the deposited data

How the results depend on the processing

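No paired analysis was possible because each sex has 1 peak list over both replicates, which also prevented leaving out a replicate. A stricter peak threshold could not be applied, since the lists have no score. Male-only peaks at the 8 genes fell to 1, against 2 in the main count, when a peak of the other list within 1 kb counted as shared (Ncor1), and also with a limit of 10 kb, with genes of all kinds and by the nearest transcription start (Hsd17b3). By the nearest transcription start there were 4 male peaks and 3 shared peaks, since Ncoa2 has no start in the table and the male peak of Hsd17b3 lies over 100 kb from its start. Promoter windows with the core motif numbered 1 with GGTCA and 0 with AGGTCA. The other counts stayed within 1.5 times their main value under every alternative run. Among them, the nearest gene end gave 8 female and 4 female-only peaks, and centres within 100 bp gave 3 male-only peaks. The nearest gene end took away the shared peak and 1 female-only peak of Esr1 and 1 peak of Ncoa1. The 30.3 kb peak of Srd5a2 was lost with a limit of 10 kb and with genes of all kinds. Depth is unknown and limits what a missing peak means.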
